A study of Drosophila melanogaster
Mus musculus with 21 samples.

Results

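Nuclear RNA of mouse embryonic stem cells was compared between cells given 500 µM auxin for 4 h and untreated cells of the same line, named PRC1deg. The line was built in E14 cells. It lacks Ring1A, carries the plant auxin receptor Tir1 at Rosa26, and makes its RING1B protein fused to an auxin-inducible degron (AID). The Ring1A deletion, the receptor and the tagged protein are shared by treated and untreated cells, so the comparison is of RING1B depletion by auxin on a Ring1A-/- background. Each of the groups compared has 3 libraries, 6 of the 21 in the series, and a Drosophila cell spike-in was added to every sample. All 20633 entries of the authors' deposited table for 4 h were used, and the account rests on the 13499 entries (12541 gene symbols) with 50 or more untreated reads. Untreated reads are the deposited untreated mean times the deposited length in kb.

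Polycomb repressive complex 1 (PRC1) places ubiquitin on histone H2A through its catalytic subunits RING1A and RING1B. It gathers at CpG islands of genes that are silent or low in the cell type at hand, above all at regulators of development, and together with PRC2 it holds them down in embryonic stem cells. Auxin brings the degron-tagged protein to a ubiquitin ligase that contains TIR1, and the protein is degraded.

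The table holds, for each entry, the authors' log2 fold change, adjusted p-value, untreated mean and length. It has no value per library, no unadjusted p and no standard error. The spread between the 3 libraries of a group enters the adjusted p, but it cannot be read from it and is not known here. Summed over the table, the untreated mean is 30450536 normalised reads, but how deeply each library was read is not known. An entry is called higher or lower here where the authors' DESeq2 adjusted p is under 0.05 and the fold change over 1.5. No group of auxin-treated cells without the degron is among the 7, so an effect of auxin and one of RING1B loss cannot be told apart in any value below. In bulk RNA, a change in the share of cells that express a gene and a change in RNA per cell cannot be told apart either. Stem cell markers were high in untreated cells: 14 of 15 were in the table, at 129 to 3585 normalised reads per kb of gene length. Markers of other cell types were low, with medians of 2.68 per kb over 7 primitive endoderm markers and 0.0862 per kb over 7 fibroblast markers. The exceptions were the trophoblast marker Tfap2c at 61.4 per kb and the fibroblast marker Thy1 at 116 per kb.

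Transcripts moved upwards at 4 h with few exceptions. Among the 13499 entries with 50 or more untreated reads, 1995 were called higher (14.8%) and 19 lower (0.141%) in the authors' deposited table. The middle of the whole distribution lay above 0: the median log2 fold change was 0.40, or 1.32-fold, the quartiles were 0.20 and 0.58, and 90.6% of entries were above 0 in the authors' deposited table. This median is called the general median below. It was subtracted from each fold change as an alternative scaling, and 924 of the 1995 entries then still passed 1.5-fold. The adjusted p was kept as deposited, so it still refers to a change from 0 and not from the general median. Calls kept or lost after centring therefore describe the size of the fold change, and significance on the centred scale was not tested. With 1 entry per gene symbol, 1836 of 12541 symbols were called higher (14.6%) and 17 lower (0.136%), and 835 were higher after centring (6.66%). These shares stand beside every gene family below. Entries for messenger RNAs and for non-coding RNAs had the same median of 0.40 in the authors' deposited table, with 14.9% of 13028 and 11.3% of 471 called higher.

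**Figure D1:**
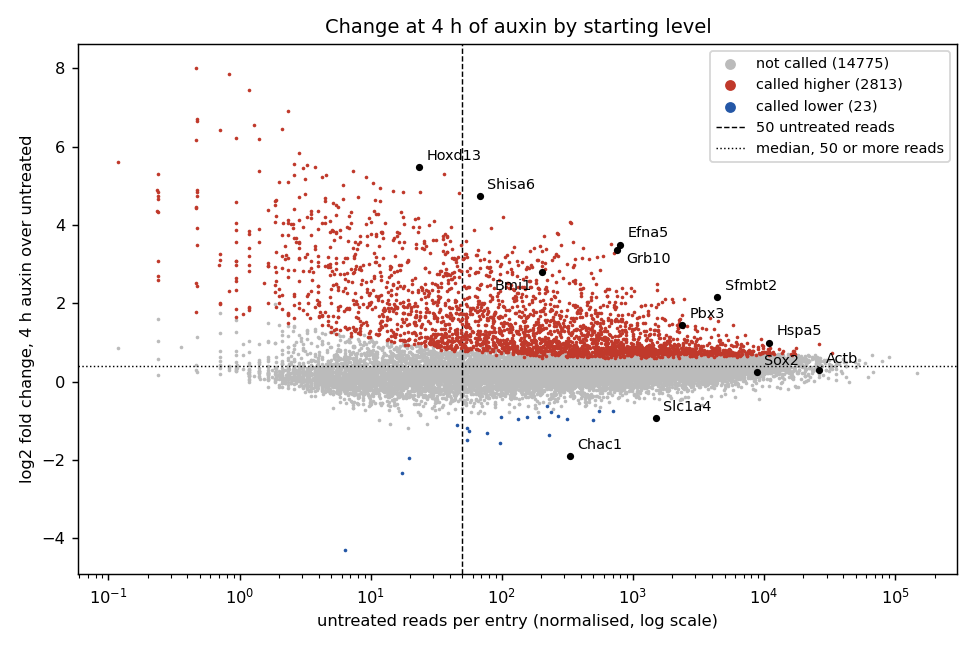
Log2 fold change at 4 h of auxin in the authors' deposited table (y axis) against untreated normalised reads per entry (x axis, log scale), 1 point per entry with an adjusted p and untreated reads above 0. Large rises sit at low untreated reads, entries with 5000 or more reads stay close to the dotted general median of 0.40, and calls of lower (blue) are few.

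The size of a rise went with the starting level. Of the 1995 entries called higher, 1093 (54.8%) lay between 1.5-fold and 2-fold and started at a median of 40.4 normalised reads per kb, the same as the 40.4 per kb of entries that were not called. The 677 entries between 2-fold and 4-fold started at 4.20 per kb, the 167 between 4-fold and 8-fold at 1.49 per kb, and the 58 over 8-fold at 0.709 per kb. The untreated mean enters both the level and the fold change, so error in it ties the 2 quantities together, and how far this shapes the pattern was not tested.

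By classes of untreated reads, the share called higher was 23.1% of the 2549 entries from 50 to 200 reads, 16.6% of 4619 from 200 to 1000, 11.1% of 4720 from 1000 to 5000 and 7.14% of 1611 with 5000 or more. The median log2 fold change went the other way, from 0.34 through 0.36 and 0.42 to 0.46 over the same classes of the authors' deposited table. The upper tail narrowed at the same time: the 95th percentile was 2.05, 1.33, 0.83 and 0.73. Entries with many reads showed a small and even upward displacement, and entries with few reads a wide one with a long upper tail. Below 50 reads, 483 of 2365 entries from 10 to 50 reads were called higher (20.4%), as were 363 of 1775 under 10 reads (20.5%). The last share cannot be read beside the others, since 2994 entries, each with at most 7.28 untreated reads, have no adjusted p, and an entry this low could gain one through its treated libraries alone.

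**Figure D2:**
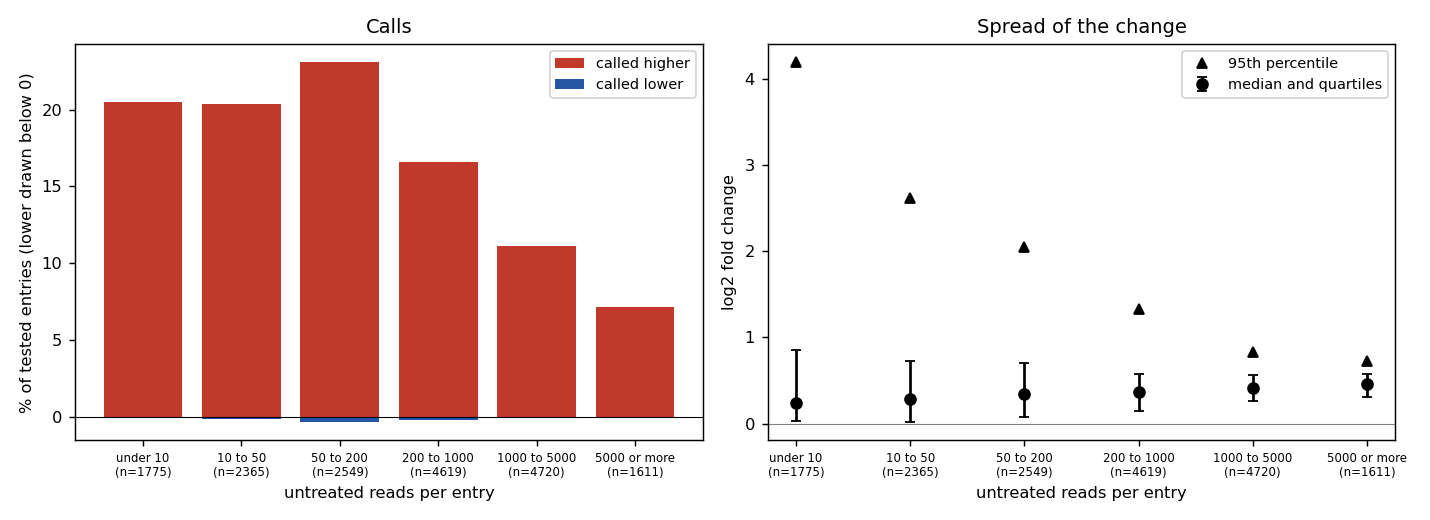
Left, percent of tested entries called higher (red) or lower (blue, drawn below 0) by class of untreated reads, and right, the median, quartiles (bars) and 95th percentile (triangles) of the log2 fold change in each class. The share called higher is 23.1% at 50 to 200 reads and 7.14% at 5000 or more, while the median moves from 0.34 to 0.46.

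On the scale of level per kb the gradient was steeper, and it was not monotonic. Of the 427 entries under 1 normalised read per kb, 54.8% were called higher, with a median log2 fold change of 0.92 in the authors' deposited table. The share was 34.6% of 1357 entries from 1 to 5 per kb, 16.8% of 2861 from 5 to 20 and 8.02% of 5901 from 20 to 100. Above that it was 11.4% of 2588 entries from 100 to 500 per kb and 11.8% of 365 at 500 or more. Most low genes stayed low in absolute terms. Of the 1402 entries called higher that started under 40.4 per kb, 239 (17.0%) reached that level when the untreated level was multiplied by the fold change. Among the entries that rose over 8-fold, the implied level at 4 h had a median of 8.45 per kb and a range of 0.542 to 124 per kb, and 6 of the 58 reached 40.4 per kb.

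Long genes were called higher more often. The share was 14.0% of 1227 entries under 5 kb, 11.9% of 4219 from 5 to 20 kb, 11.8% of 5938 from 20 to 100 kb, 27.5% of 1933 from 100 to 500 kb and 46.7% of 182 entries of 500 kb or more. Among entries of 50 to 200 reads it was 13.5% under 5 kb, 52.7% from 100 to 500 kb and 64.3% at 500 kb or more. Among entries of 5000 or more reads it was 8.11%, 6.59% and 10.0% for the same lengths, the last over 30 entries. At equal reads a longer gene has fewer reads per kb, so length and level per kb cannot be told apart within these classes.

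Counted as reads rather than as entries, where the added nuclear RNA lay depended on the scaling. On the deposited scale, untreated reads times the fold change less 1 came to 11338953 added reads over the entries with 50 or more, 37.3% of their untreated total. The entries called higher held 2486282 of these (21.9%), a gain of 97.3% on their own untreated reads. The entries that were not called held 78.1%, a gain of 31.8%. The share of added reads that fell in called entries was 78.7% at 50 to 200 reads and 11.9% at 5000 or more. After centring, the added reads over all of these entries were 1299921, of which the same called entries held 1273316 (98.0%) and those not called 30101 (2.32%). The calls were made on these same fold changes, and centring sets the middle entry to no change. The centred split was therefore largely set in advance and is given as a description.

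**Figure D3:**
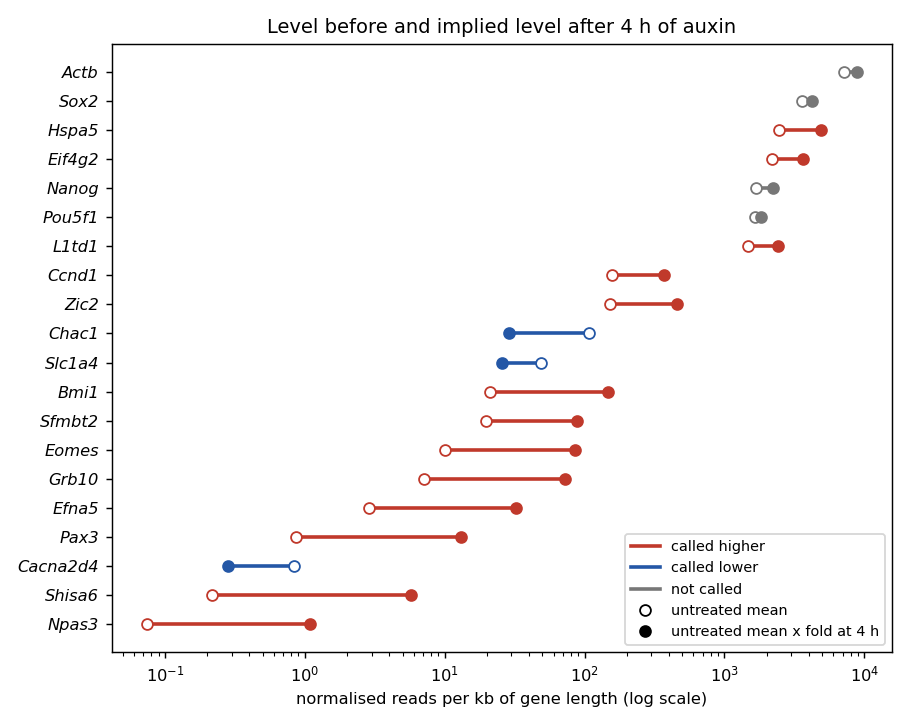
Untreated level (open circles) and implied level at 4 h, the untreated level times the fold change in the authors' deposited table (filled circles), of 20 genes in normalised reads per kb of gene length on a log scale. Npas3 goes from 0.0745 to 1.09 per kb and Bmi1 from 21.0 to 147 per kb, while the pluripotency genes Sox2, Nanog and Pou5f1 (grey, not called) start at 3585, 1674 and 1640 per kb.

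The genes with the highest fold changes came from many families. Shisa6, an auxiliary protein of AMPA glutamate receptors, rose most among genes past the threshold of 50 reads: the authors' deposited table gives it a log2 fold change of 4.73 (adjusted p 2.23e-36). Vwc2, a secreted protein that binds BMPs, followed at 4.20, the transcription factor Nfia at 4.06, and the neural crest and muscle regulator Pax3 at 3.92 in the authors' deposited table. All 4 started under 1 normalised read per kb. The bHLH-PAS factor Npas3 had 3.87, the L-type calcium channel subunit Cacna1c 3.77, Trank1 3.72 and the homeobox factor Lmx1b 3.60 in the authors' deposited table. N-cadherin (Cdh2) had 3.56, the Hox cofactor Meis2 3.53, the ephrin Efna5 3.50 and the heparan sulphate sulphotransferase Hs6st2 3.49 in the authors' deposited table. Mecom, a zinc finger regulator of haematopoietic stem cells, had 3.46, Rnf217 3.45 and the germ cell RNA-binding protein Rbm46 3.41 in the authors' deposited table. Of the 50 symbols over 8-fold, 21 (42.0%) belonged to one of the families described below, which cover 12.7% of all symbols with 50 or more reads. Since the families were drawn up with earlier results of these data known, this share is a description. The 3 entries just under the threshold of 50 reads were Oprd1 at 1.60, Pdzrn4 at 1.61 and Pih1d2 at 0.97, all called higher, and the 3 just over it were Cnih2 at 0.15, Cdsn at -0.13 and Tnfsf9 at 0.53, none called, in the authors' deposited table.

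Transcription factors of development were often called higher. Leaving out the zinc finger Zfp genes and the Klf and Sp factors, a split made after the values were seen, 44 of 83 symbols with 50 or more untreated reads were called higher (53%, against 14.6% of all symbols), 37 were higher after centring and 0 were lower. The Zfp, Klf and Sp genes together gave 41 of 277 (14.8%), and 12 after centring.

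Among homeobox and paired-box families, 4 sets with 3 or more members of 50 or more reads had every such member called higher. These were the Pax genes (4 of 4, median log2 fold change 3.28), the LIM homeobox genes (3 of 3, 2.79), the En, Otx, Gbx and Emx genes of brain patterning (4 of 4, 2.26) and the neural POU factors (3 of 3, 2.11) in the authors' deposited table. Pax2, of kidney and midbrain, had 3.37 and Pax6, of eye and forebrain, 3.19 in the authors' deposited table. Lmx1a, of midbrain dopamine neurons, had 2.79, the midbrain-hindbrain factor En2 2.41 and the retinal ganglion cell factor Pou4f2 2.83 in the authors' deposited table. After centring 4 of 4 Pax, 2 of 3 LIM, 3 of 4 En, Otx, Gbx and Emx, and 3 of 3 POU genes kept their calls. The phosphatase and transcriptional coactivator Eya4 had 3.26 in the authors' deposited table.

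Within several families some members rose and others were not called. Of the Meis and Pbx genes, Meis2 (3.53), Meis1 (2.79) and Pbx3 (1.45) were called higher in the authors' deposited table, and Pbx2 and Pbx4 were not called, at 0.19 and -0.06. Sox genes outside Sox2 gave 6 of 10 called higher, led by the neural factors Sox21 (2.94) and Sox1 (2.42) in the authors' deposited table. Of 5 T-box genes 3 were called higher. Eomes, of primitive streak and trophoblast, went from 10.1 to an implied 85.8 normalised reads per kb with a log2 fold change of 3.09, and Tbx15 had 3.01 in the authors' deposited table. The endoderm factors Gata6 and Gata4 were both called higher, at 2.93 and 1.38 in the authors' deposited table. Ebf, Nr2f and Nfi genes gave 5 of 7, and 3 after centring.

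Forkhead factors with 50 or more reads gave 2 of 18 called higher (11.1%), with a median of 0.44 in the authors' deposited table. Klf and Sp factors gave 1 of 20 (5.00%) and a median of 0.35. The Hes, Hey and Id genes, targets of Notch and BMP signalling, gave 0 of 5 with a median of 0.30 in the authors' deposited table. Zfp genes, a large class of zinc finger proteins, gave 40 of 257 (15.6%), with Zfp711 (2.43) and Zfp800 (2.04) highest in the authors' deposited table. These shares lie near or below the 14.6% of all symbols. With 10 or more reads, 6 of 25 Forkhead, 2 of 23 Klf and Sp and 44 of 274 Zfp genes were called higher. For Hes, Hey and Id genes it was 4 of 9, all 4 under 50 reads. They were Hey2 (2.02), Hes2 (1.60), Hey1 (1.35) and Id4 (1.23) in the authors' deposited table. At any level, 16% of all symbols were called higher.

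Hox genes set the body axis and had very few untreated reads, so that few of them reached 50 reads. Hoxc13 (125 reads) was called higher at 1.01, as was 1 Hoxa gene (92.5 reads) at 1.03, in the authors' deposited table. Hoxb9 (104 reads) had 0.30 and was not called in the authors' deposited table. Over all 17639 entries with an adjusted p, whatever their reads, 16.1% were called higher and 0.13% lower, and with 1 entry per symbol 16% and 0.128%. Among genes with 10 or more reads, 3 of 3 Hoxa, 0 of 2 Hoxb, 4 of 5 Hoxc and 4 of 4 Hoxd genes were called higher. At any level, 11 of 11 Hoxa, 6 of 9 Hoxb, 8 of 9 Hoxc and 9 of 9 Hoxd genes with an adjusted p were called higher. Of these tested genes, only 3 Hoxa, 2 Hoxb, 5 Hoxc and 4 Hoxd genes had 10 or more untreated reads. The rest, among them all 6 called Hoxb genes, had under 10 reads, where an adjusted p can be gained through treated libraries alone. The counts at any level therefore cannot be read beside those with 10 or more reads. Hoxd13 had 23.5 untreated reads and a log2 fold change of 5.48 in the authors' deposited table, which takes it from 7.14 to an implied 318 normalised reads per kb. Hoxa10 had 4.85 and Hoxa3 2.79 in the authors' deposited table. Other homeobox families were almost wholly under 50 reads. The genes Foxc1 and Cdx2 are listed at 0 in untreated cells and were called higher, and no fold is given for them. They are among 28 entries listed at 0 that have an adjusted p and all 28 were called higher, but an entry listed at 0 passes the filter on low values only through its treated libraries.

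**Figure D4:**
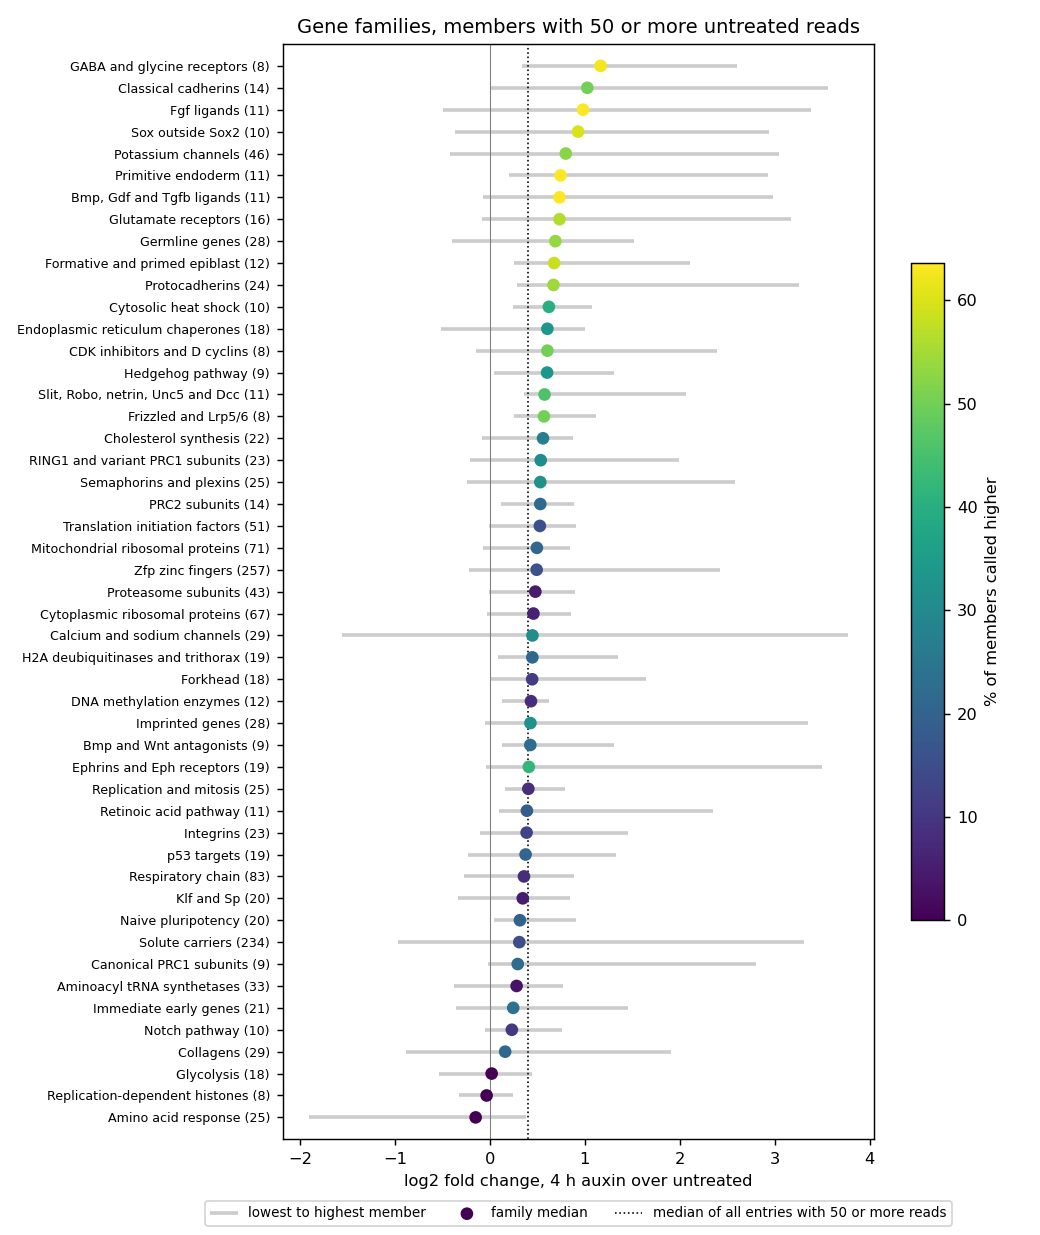
Median log2 fold change (points) and lowest to highest member (grey lines) of the 49 families with 8 or more members of 50 or more untreated reads, in the authors' deposited table, with the number of members in brackets and the percent called higher as colour. Families of neural receptors, cadherins and Fgf ligands lie at the top, and 15 family medians lie left of the dotted general median of 0.40, down to -0.15 for the amino acid response, and those of them above 0 turn negative with centring.

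Signalling genes were called higher in 29 of 76 symbols (38.2%), and in 16 after centring (21.1%). Of 11 Fgf genes 7 were called higher, 5 after centring, with Fgf13, an intracellular member that binds sodium channels, at 3.38 and Fgf10, the limb and lung ligand, at 1.55 in the authors' deposited table. Fgf4, the ligand that embryonic stem cells make themselves, had 0.11 and was not called in the authors' deposited table. The set of Bmp, Gdf and Tgfb genes also gave 7 of 11, and 3 after centring, led by Bmp6 (2.99), Tgfb2 (1.48) and the procollagen protease Bmp1 (1.36) in the authors' deposited table. Of 3 Wnt genes with 50 or more reads 2 were called higher, Wnt5b at 2.17 and Wnt6 at 1.54 in the authors' deposited table.

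Frizzled and Lrp5/6 receptors of Wnt gave 4 of 8, and 2 after centring, with Fzd3 at 1.12 in the authors' deposited table. Among 4 Fgf receptors, Fgfr2 alone was called higher, at 1.10. The Notch pathway gave 1 of 10, the ligand Jag1 at 0.76, with a family median of 0.23 in the authors' deposited table and 8 members below the general median. Hedgehog genes gave 3 of 9, with the transcription factor Gli3 at 1.31 in the authors' deposited table. Retinoic acid genes gave 2 of 11, where the synthesis enzyme Aldh1a2 had 2.35 in the authors' deposited table and the family median was 0.39. After centring, 0 of 10 Notch, 1 of 9 Hedgehog and 1 of 11 retinoic acid genes were higher.

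Genes of neurons and of cell adhesion were called higher in 97 of 244 symbols (39.8%), 75 of them also after centring (30.7%), and 2 were called lower. Potassium channels gave 24 of 46 (52.2%), 20 after centring, with a median of 0.80 in the authors' deposited table. Kcnd3, an A-type channel, had 3.05 and Kcnq5, an M-type channel, 2.49 in the authors' deposited table. Calcium and sodium channels were split: 9 of 29 were called higher and 1 lower, and the median of 0.45 was near the general one. The auxiliary calcium channel subunits Cacnb2 (3.40), Cacna2d3 (2.86) and Cacnb4 (2.54) rose, while Cacna2d4, another auxiliary subunit, fell by 1.56 on the log2 scale in the authors' deposited table.

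Neurotransmitter receptors moved in the same direction as the channels. Glutamate receptors gave 9 of 16 called higher, among them the delta receptor Grid1 (3.17), the metabotropic Grm8 (2.48) and the NMDA subunit Grin2a (2.17) in the authors' deposited table. GABA and glycine receptors gave 5 of 8, with Gabra4 at 2.61 and a family median of 1.17 in the authors' deposited table. Their levels were low, and Grid1 went from 0.536 to an implied 4.82 normalised reads per kb.

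Axon guidance genes were called higher in 8 of 19 ephrins and Eph receptors, 8 of 25 semaphorins and plexins and 5 of 11 Slit, Robo, netrin, Unc5 and Dcc genes. Their medians were 0.41, 0.53 and 0.57 in the authors' deposited table, close to the general median, so the calls came from a part of each family. Efna5 and the receptors Epha7 and Ephb1 had 3.50, 2.82 and 1.95, Plxnc1 2.58, Sema3d 2.37 and the guidance cue Ntn1 2.04 in the authors' deposited table. After centring the counts were 6, 8 and 4.

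Classical cadherins gave 7 of 14 called higher, all 7 also after centring. N-cadherin and the neural cadherins Cdh8 and Cdh4 had 3.56, 3.10 and 2.11 in the authors' deposited table. E-cadherin (Cdh1), the cadherin of stem cell colonies, had 0.24 and was not called in the authors' deposited table. For protocadherins the count was 13 of 24, but 18 of these entries belong to the gamma cluster, whose variable exons are spliced to shared 3′ exons. The 15 entries of the gamma a and b kind had log2 fold changes from 0.59 to 0.69 in the authors' deposited table. How far these entries share reads was not tested, so whether the 9 calls among them are separate is uncertain. Outside that cluster 4 of 6 were called higher, with Pcdh17 at 3.25 and Pcdh19 at 2.81 in the authors' deposited table. Collagens gave 6 of 29 called higher and 1 lower with a median of 0.16, led by Col27a1 (1.91), and the basement membrane chain Col4a2 had 1.28 in the authors' deposited table. Integrins gave 3 of 23 (13%).

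Of 20 pluripotency genes of the naive state 4 were called higher (20%, against 14.6% of all symbols), Nr0b1 (0.91), Lin28a (0.82), Dppa2 (0.78) and Sall4 (0.66), in the authors' deposited table, and 0 after centring. The family median was 0.32 in the authors' deposited table. The core factors were not called: Pou5f1 had 0.15, Sox2 0.25 and Nanog 0.41, and the naive factors Klf4, Esrrb and Zfp42 had 0.33, 0.13 and 0.30 in the authors' deposited table. All 20 were above 0 and 12 of 20 were below the general median, so the direction of those 12 flips with centring. Formative and primed epiblast genes gave 7 of 12 called higher, among which the authors' deposited table lists the epiblast factors Pou3f1 with 2.11 and Zic2 with 1.60, and 3 of 12 after centring.

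Primitive endoderm genes gave 7 of 11 called higher, with the growth factor receptor Pdgfra at 1.81 in the authors' deposited table, and trophoblast genes 3 of 5, with Tfap2a at 2.83. Over all levels, all 7 primitive endoderm markers were called higher, with untreated levels of 0.996 to 6.90 normalised reads per kb. Of the 6 trophoblast markers with an adjusted p, only 3 were called higher, namely Eomes, Gata3 and Cdx2. Tfap2c had 0.56 and was not called in the authors' deposited table. Krt7 and Elf5, with 26.1 and 7.29 untreated reads, had -0.01 and -0.67 and were not called either. Only 3 of 7 fibroblast markers and 1 of the 2 blood markers in the table have an adjusted p, and 0 of these 4 were called. The endoderm and trophoblast counts include Gata and T-box genes already described.

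Germline genes, which act in meiosis and germ cells and many of which are silenced in somatic cells, gave 15 of 28 called higher (53.6%), 9 after centring. The RNA helicase Ddx4, the synaptonemal complex protein Sycp1 and the Tudor protein Tdrd1 each had 1.51, and Slc25a31, the germ cell ADP/ATP carrier, had 1.42 in the authors' deposited table. The highest value of these 28 genes was 1.51, while Rbm46, a germ cell gene described above that is not one of them, had 3.41 in the authors' deposited table.

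Imprinted genes, expressed from 1 parental copy, gave 9 of 28 called higher (32.1%) and 5 after centring, with a median of 0.43 in the authors' deposited table. Grb10, an adaptor that restrains growth factor signalling, had 3.35 and went from 7.08 to an implied 72.3 normalised reads per kb in the authors' deposited table. Sfmbt2, itself a Polycomb-group protein, had 2.17 and the growth factor Igf2 2.00 in the authors' deposited table. Of 8 CDK inhibitors and D cyclins, another family of growth regulators, 4 were called higher (50.0%, against 14.6% of all symbols), 3 after centring, and 4 were below the general median. The D cyclins Ccnd2 and Ccnd1 had 2.39 and 1.22 and the CDK inhibitor Cdkn2a 1.12, while the p53 target Cdkn1a had -0.15 and was not called in the authors' deposited table.

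Genes of the Polycomb system itself changed unevenly. The degron acts on protein, so the RNA of Rnf2, which encodes RING1B, does not check the depletion. Its log2 fold change was 0.94, called higher, and that of Ring1 0.00 in the authors' deposited table. Ring1 is deleted in both groups, yet the entry had 52.0 normalised reads per kb in untreated cells, and the extent of the deletion within the deposited length is not known here, so this value does not check the genotype. Bmi1 (PCGF4), the alternative to Pcgf2 in canonical PRC1, rose by 2.81 from 21.0 to an implied 147 normalised reads per kb, which is beside the 135 per kb of Pcgf2 before treatment and its value of 0.29, not called, in the authors' deposited table. Canonical PRC1 genes with 50 or more reads gave 2 of 9 called higher (22.2%, against 14.6% of all symbols), and 1 after centring. Their median was 0.29 in the authors' deposited table, and 6 of 9 were below the general median. Among chromobox subunits, Cbx7, the main one of stem cells at 262 per kb, had 0.06 and was not called in the authors' deposited table. Cbx2 had 0.77 and was called higher in the authors' deposited table, but it lost its call with centring. Cbx8, with 15.1 untreated reads, had 2.80 in the authors' deposited table.

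Of the RING1 and variant PRC1 genes 7 of 23 were called higher, led by the PCGF1 partner Bcor (2.00), the PCGF6 partner E2f6 (1.54) and Pcgf5 (1.08) in the authors' deposited table, and these 3 kept their calls after centring, when 3 of 23 were higher. Kdm2b, which brings variant PRC1 to CpG islands, had 0.77, and Pcgf1 had 0.37 and was not called in the authors' deposited table. PRC2 gave 3 of 14, its catalytic subunit Ezh2 (0.72), Eed (0.71) and Phf19 (0.89), while Suz12 had 0.53 and was not called in the authors' deposited table. After centring 0 of 14 PRC2 genes were higher. Genes that counteract Polycomb gave 4 of 19 and 1 of 19 after centring. In the authors' deposited table Asxl3 had 1.35, and kept its call with centring, and the histone methyltransferase gene Setd1b had 0.84, and lost it. DNA methylation enzymes gave 1 of 12, Tet3 at 0.63, and 0 after centring.

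Genes of general cell physiology were called higher in 103 of 751 symbols (13.7%), below the 14.6% of all symbols, and 27 of them (3.60%) after centring. Single members ranged from -1.90 (Chac1) to 3.31 (Slc8a1) and 6 were called lower in the authors' deposited table. Cytoplasmic ribosomal protein genes gave 4 of 67, respiratory chain genes 7 of 83, proteasome subunits 2 of 43, aminoacyl tRNA synthetases 1 of 33 and translation initiation factors 8 of 51. The medians were 0.46, 0.36, 0.48, 0.28 and 0.53 in the authors' deposited table, and 0 genes of these 5 families were higher after centring. Mitochondrial ribosomal proteins gave 15 of 71 (21.1%), also 0 after centring. The 5 called genes with the most untreated reads were Eif4g2 (0.74), Ptprg (0.96), Bnc2 (0.86), L1td1 (0.71) and G3bp2 (0.77) in the authors' deposited table, and none of these 5 passed after centring.

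Stress and metabolic programmes gave mixed results. Cholesterol synthesis genes gave 6 of 22 called higher, with Nsdhl at 0.88 and Hmgcs1 at 0.77 in the authors' deposited table, and 0 after centring. Chaperones of the endoplasmic reticulum gave 6 of 18 and cytosolic heat shock genes 4 of 10, with the abundant chaperones Hspa5 at 1.00 and Hsph1 at 1.07 in the authors' deposited table, and 1 of each set after centring. Immediate early genes, which respond to signals within minutes, gave 5 of 21 and a median of 0.24, with the MAP kinase phosphatase Dusp4 at 1.41 in the authors' deposited table. Fos and Egr1 had -0.36 and -0.04 and were not called in the authors' deposited table. Egr2 and Egr3, with 4.93 and 5.40 untreated reads, had 3.43 and 3.83 and were called higher in the authors' deposited table. At any level the family gave 10 of 27, against 16% of all symbols. Of 19 p53 target genes 4 were called higher, 2 after centring, with Gadd45a at 1.12 in the authors' deposited table.

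Cyp1a1 and Cyp1b1, targets of the aryl hydrocarbon receptor, which indole compounds can activate, had 19.4 and 14.8 untreated reads and log2 fold changes of 3.10 and 3.63 in the authors' deposited table. Of the receptor's other genes with 50 or more reads, 0 of 6 were called, with a median of 0.54. Auxin is an indole, and whether these 2 genes respond to it or to RING1B loss cannot be told apart in these groups.

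Glycolysis genes stood near 0 while most transcripts were above it. Their median log2 fold change was 0.02 over 18 genes in the authors' deposited table, 17 of the 18 were below the general median, and 0 were called in either direction. Gapdh had 0.45, Pkm 0.12 and the glucose transporter Slc2a3 0.04 in the authors' deposited table. Replication-dependent histone genes gave 0 calls among 8 and a median of -0.04. After centring the glycolysis median is below 0, so its direction depends on the scaling, while the histone median is below 0 on both scales.

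The amino acid response was the family with the lowest median, -0.15 over 25 genes in the authors' deposited table, with 0 called higher and 5 lower. All 25 were below the general median. Chac1, a glutathione-degrading enzyme induced by ATF4, fell by 1.90 (adjusted p 4.21e-06), from 107 to an implied 28.7 normalised reads per kb, in the authors' deposited table. The stress regulators Nupr1 and Trib3 had -1.36 and -0.99, the glycine transporter Slc6a9 -0.96 and the pro-apoptotic factor Ddit3 (CHOP) -0.78 in the authors' deposited table. The regulator Atf4 itself had -0.16 and asparagine synthetase (Asns) 0.16, and neither was called in the authors' deposited table. Slc1a4, a transporter of neutral amino acids outside this list, fell by 0.93 with 1491 untreated reads in the authors' deposited table.

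In all, 17 symbols with 50 or more reads were called lower, and 5 of them were in the amino acid response. Outside that family, the largest falls were those of Cacna2d4 (-1.56), Sbsn (-1.50), Ndufa4l2 (-1.30) and A230009B12Rik (-1.25) in the authors' deposited table. The other 8 symbols lie between -0.61 (Pdgfrb) and -0.95 (Mef2b), and the entries called lower had a median of 222 untreated reads. Solute carriers as a class gave 35 of 234 called higher (16 after centring) and 2 lower, and the 2 lower ones were Slc6a9 and Slc1a4. The sodium-calcium exchanger Slc8a1 had the highest value among those 234, 3.31 in the authors' deposited table.

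The values at 4 h stand beside those of the other times, which the authors compared with the same 3 untreated libraries, so the comparisons are not independent. The median log2 fold change of entries with 50 or more reads took the values 0.15, 0.40, 0.50 and 0.24 in the authors' deposited tables for 2, 4, 8 and 24 h. In the same order, 562 (4.16%), 1995 (14.8%), 3450 (25.6%) and 1226 (9.08%) entries were called higher, and 42 (0.311%), 19 (0.141%), 14 (0.104%) and 89 (0.659%) lower. The entries called higher at 4 h, which were chosen at that time, had medians of 0.44, 0.94, 0.99 and 0.62 at 2, 4, 8 and 24 h in the authors' deposited tables.

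Families differed in when their values were highest. Pax genes had medians of 2.41, 3.28, 3.20 and 2.53 and neural POU factors 1.26, 2.11, 1.80 and 0.98 at 2, 4, 8 and 24 h in the authors' deposited tables. Potassium channels had 0.31, 0.80, 0.93 and 0.42 and germline genes 0.29, 0.69, 0.76 and 0.49. The 3 Zic genes with 50 or more reads had their highest median at 2 h, at 0.86, 0.69, 0.23 and 0.03. Over all 5 Zic genes the median was highest at 4 h, at 1.44, 1.60, 0.97 and 0.44, so the peak depends on the read threshold. Naive pluripotency genes had 0.19, 0.32, 0.16 and 0.11, below the median of all entries at 4, 8 and 24 h. The amino acid response stayed at or below 0, with -0.08, -0.15, -0.00 and -0.24. Among single genes, Gata6 had 2.03, 2.93, 3.41 and 4.16 and Igf2 0.73, 2.00, 2.68 and 3.76 at the successive times in the authors' deposited tables, while Ntn1 had 1.96, 2.04, 1.39 and 0.76. None of these differences between times was tested.

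**Figure D5:**
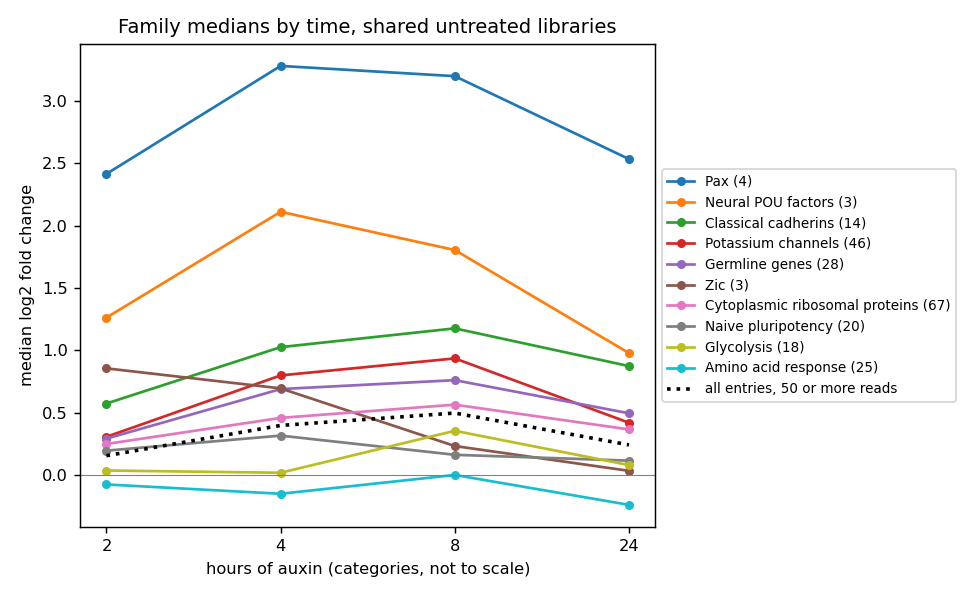
Median log2 fold change against the shared untreated libraries of 10 families (members with 50 or more untreated reads, number in brackets) at 2, 4, 8 and 24 h of auxin, which are drawn as categories, with the median of all such entries as a dotted line. Pax genes are at 3.28 at 4 h, cytoplasmic ribosomal protein genes lie just above the dotted line, and the amino acid response lies at or below 0.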

How the data were processed

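Nuclear RNA was freed of ribosomal RNA, made into directional libraries and sequenced from both ends over 80 bp, per the labels' protocols. The names of the deposited tables give a spike-in normalised DESeq2 comparison, and the submitters' processing notes name Bowtie2, STAR, SAMtools, bedtools, DESeq2 and the mm10 and dm6 builds. The tools' versions were not given in the sources used here. Whether the log2 fold changes deposited by the authors were shrunken is not given in the sources used here. Under 10 untreated reads, entries with no adjusted p included, their quartiles were -0.0153 and 0.211, and among those with an adjusted p the 95th percentile was 4.19. The p-values deposited by the authors are adjusted over the whole table and were used as they stand. The signal deposited by the authors as an untreated mean is headed RPKM but its values times length sum to 30450536, so it was read as normalised reads per kb. The deposited length spans introns, so reads of overlapping genes may be shared. Of 20633 entries, 676 have no fold change and 2994 no adjusted p.

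From these values, calls, classes, medians, centred values and implied levels were computed in Python 3.11.15 with numpy 2.4.6, pandas 2.3.3, scipy 1.17.1 and matplotlib 3.10.9, and the calling step was tested on simulated data. Gene families were built by symbol pattern or list, 78 in all, with 1 entry per symbol (that with the most untreated reads). Families share members, and transcripts of 1 gene are separate entries. The members and lists were chosen with earlier results of these data known. Named genes were the 15 highest and 10 lowest calls, the 5 called with the most reads, up to 4 members per family by adjusted p (with no call, the 2 with most reads), and a set of subunits of PRC1 and PRC2 with stem cell factors. Other genes were named after their values were seen. Alternatives were other thresholds, minimum reads, centring and counting symbols once. Promoter sequences were not analysed here, and whether replicates are separate cultures is known only as far as the labels call them biological triplicates. Some genes are not reported here.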

Additional observations from a re-analysis of the deposited data

How the results depend on the processing

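No paired analysis was possible because the deposited tables hold no values per library, and for the same reason leaving out each replicate in turn was not run. The promoter sequence comparison was not run, since no mouse sequence was used here. The number of entries called higher at any level went from 2841 to 1709 with an adjusted p under 0.01, 1702 with a fold over 2 and 1731 with centring on the general median. Among entries with 50 or more untreated reads it went from 1995 to 1054 with an adjusted p under 0.01, 3191 under 0.1, 902 with a fold over 2 and 924 with centring. Entries called lower at any level went from 23 to 8 with an adjusted p under 0.01, 41 under 0.1 and 11 with a fold over 2. With 50 or more reads they went from 19 to 8, 31 and 7 under the same settings, and to 10 with 200 or more reads. The median log2 fold change was 0.4048 with 200 or more reads and 0.3768 over all entries with an adjusted p. The percent called higher, in the classes from 10 to 50 reads up to 5000 or more, was 18.5, 16.0, 8.05, 2.42 and 0.435 with a fold over 2, and 18.8, 16.3, 8.23, 2.54 and 0.497 with centring. Added reads came to 1299921 with centring. Of 319 named genes with a fold change, 59 lost their call with centring and 260 stayed on their side of the threshold. The count of higher calls moved by over 1.5 times in 26 of 77 families with centring, 26 with a fold over 2, 28 with an adjusted p under 0.01 and 45 when limited to members with 50 or more reads. A minimum of 10 reads, chosen after seeing the data, moved 18. No call of higher became one of lower, but none of these settings could make that happen. Centring subtracts 1.32-fold, which is less than the 1.5-fold threshold, and the other settings do not alter a sign. Smaller changes did turn direction with centring, as given above for naive pluripotency and glycolysis genes. The depth of single libraries is unknown.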
